A study of Homo sapiens with 9 samples.

Results

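Ewing sarcoma cells carry a set of surface and secreted products that set them apart from most other tumors, and 10 genes that encode such products were followed here: the surface glycoprotein CD99, the metalloreductases STEAP1 and STEAP2, the adhesion receptor ADGRG2, the secreted proteins CCK, PAPPA and LIPI, and the neuropeptide NPY with its receptors NPY1R and NPY5R. They were chosen by gene symbol from a table of 60603 genes, with the X chromosome row used for CD99. Of the 10 genes, 9 had enough reads to be tested among 16093 tested genes, and NPY did not. RNA from TC32, an established Ewing sarcoma cell line labelled WT for genotype and batch 1 in every library, was sequenced in bulk at 30 h in 3 groups of 3 libraries. The siEF group received an siRNA over the breakpoint of the EWS::FLI1 fusion, the siNEG group received a non-specific siRNA, and the third group is labelled Media with no siRNA named. All 9 libraries therefore come from 1 line that carries the fusion. The protocol text of the Media libraries is the same as that of the siRNA libraries, and whether they received transfection reagent is not stated in the sources used here.

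EWS::FLI1 joins the activation domain of EWSR1 to the DNA-binding domain of the ETS factor FLI1, which recognizes GGAA. The fusion is known to bind tandem GGAA repeats, called GGAA microsatellites, which the normal ETS factors use little. CD99 is the membrane antigen used to diagnose Ewing sarcoma, and STEAP1, CCK, LIPI and NPY1R are among the genes long known as abundant in this tumor.

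In siEF, 7 of the 9 tested genes fell against siNEG, CCK by 8.30-fold, LIPI by 6.18-fold, STEAP2 by 5.11-fold, STEAP1 by 4.90-fold, ADGRG2 by 3.19-fold, PAPPA by 2.79-fold and NPY1R by 2.18-fold. CD99 did not pass the call and stood at 118% of its siNEG level. The call was an adjusted P under 0.01 with a log2 fold change beyond 1. None was called higher in edgeR's quasi-likelihood test or in DESeq2, and 1 (CD99) was higher at an unadjusted P under 0.05, as were 39.2% of tested genes. Of all tested genes, 11.7% were called lower and 17.1% higher in this comparison. The median log2 fold change was -1.67 over the 9 genes and 0.05 over all tested genes. In bulk RNA, fewer cells with a transcript and less transcript per cell cannot be told apart.

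Libraries held between 20727706 and 33134581 expected counts, the lowest being siEF replicate 2. The share of counts held by the 10 most abundant genes was 12.3% to 12.9% in siEF, compared with 5.78% to 6.62% across siNEG and Media. FLI1, whose row collects reads from the fusion and from any normal FLI1, stood at 38.4, 35.5 and 39.3 CPM (counts scaled to library size by TMM) in siEF and at 48.6, 48.5 and 48.0 in siNEG (log2 fold change -0.35, adjusted P = 2.88e-05). NR0B1, a well known target of the fusion, fell by 2.97 on the log2 scale (adjusted P = 7.00e-15). The 4 Ewing sarcoma markers NKX2-2, NR0B1, BCL11B and FLI1 were detected in every group, with summed levels of 119 to 123 CPM in siEF, 349 to 358 in siNEG and 441 to 473 in Media. The muscle regulators MYOD1 and MYOG were at 0 in all libraries, and the 4 leukocyte markers summed to at most 0.417 CPM. The 3 endothelial markers summed to 1.81 to 2.69 CPM in siEF and 3.43 to 4.77 in siNEG, with most of the sum from PECAM1 (log2 fold change -1.22, called lower), while CDH5 (1.65, not called) and VWF (at most 3 counts) were higher in every siEF library than in every siNEG library. HAND2, a transcription factor of sympathetic neuroblasts and other tissues, stood at 88.1, 94.9 and 86.1 CPM in siEF, at 76.3, 73.6 and 78.1 in siNEG and at 119, 113 and 109 in Media (log2 fold change 0.24 for siEF against siNEG, adjusted P = 0.000708, not called). Their part in the changes was not tested.

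Distances were taken from the start of the canonical transcript in GENCODE. The 4 genes with a GGAA microsatellite nearest to that start were CCK, LIPI, STEAP2 and PAPPA, and these loci are shown because the silenced protein is known to bind such repeats. A microsatellite was counted as 4 or more uninterrupted GGAA on either strand of the hg38 reference. Each sequence is read 5′ to 3′ on the strand of its gene, with the repeat runs in capitals and 20 bases on either side. The CCK locus is chr3:42266507-42266590 (minus strand), the LIPI locus chr21:14213272-14213355 (minus), the STEAP2 locus chr7:90208333-90208501 (plus) and the PAPPA locus chr9:116141852-116141935 (plus).
CCK: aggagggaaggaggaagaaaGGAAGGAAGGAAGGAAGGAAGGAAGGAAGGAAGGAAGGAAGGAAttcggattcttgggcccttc
LIPI: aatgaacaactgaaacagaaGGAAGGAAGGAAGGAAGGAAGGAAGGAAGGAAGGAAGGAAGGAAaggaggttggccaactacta
STEAP2: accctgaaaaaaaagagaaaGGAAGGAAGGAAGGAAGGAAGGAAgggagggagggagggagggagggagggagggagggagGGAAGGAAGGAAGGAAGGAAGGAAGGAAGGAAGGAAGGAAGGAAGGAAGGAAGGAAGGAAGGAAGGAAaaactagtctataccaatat
PAPPA: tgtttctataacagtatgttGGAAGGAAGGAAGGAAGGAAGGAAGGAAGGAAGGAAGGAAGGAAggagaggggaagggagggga
The CCK, LIPI and PAPPA loci each hold 1 run of 11 repeats, and the STEAP2 locus holds runs of 6 and 17 parted by a GGGA-rich stretch. All 4 read GGAA in the direction of the gene. The STEAP2 locus lies inside the STEAP2 gene as annotated and before the start of its canonical transcript at position 90211740. These are reference letters, and repeat number in TC32 cells was not measured.

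Among the surface proteins, STEAP1 and STEAP2 lie in tandem on chromosome 7 (hg38), STEAP1 at chr7:90154456-90164829 and STEAP2 at chr7:90167590-90238137, both on the plus strand with 2.76 kb between them. Both encode metalloreductases of the six-transmembrane family, STEAP2 with an enzymatic domain that reduces iron and copper and STEAP1 as a partner that lacks it. STEAP1 stood at 8.67, 9.75 and 7.44 CPM in siEF, at 43.6, 42.1 and 39.8 in siNEG and at 49.8, 49.0 and 52.4 in Media. The 3 siEF libraries were below all others, and siNEG was below Media without overlap. STEAP1 fell by 2.29 on the log2 scale against siNEG (SE 0.083, adjusted P = 2.97e-13). Its expected counts were fractional in 9 of 9 libraries, which RSEM gives where it splits reads between similar sequences, so its level is uncertain to that degree.

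STEAP2 stood at 5.998, 6.12 and 6.17 CPM in siEF, at 31.5, 30.0 and 32.0 in siNEG and at 40.9, 41.7 and 48.8 in Media. The order of the groups was that of STEAP1, with no overlap. STEAP2 fell by 2.35 on the log2 scale against siNEG (SE 0.086, adjusted P = 3.47e-13). The log2 ratio of STEAP1 to STEAP2 per kb was 2.99 ± 0.204 in siEF and 2.92 ± 0.0935 in siNEG (SD, n = 3), and the difference of 0.07 was within the spread (exact two-sided permutation test, P = 0.7, smallest possible 0.1). Leaving out siEF replicate 2 turned its sign (-0.02).

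ADGRG2 (chrX:18989307-19122637, minus strand), an orphan adhesion G protein-coupled receptor best known from the epididymis, stood at 56.9, 57.0 and 51.1 CPM in siEF, at 175, 176 and 175 in siNEG and at 165, 168 and 171 in Media. The siEF libraries were far below both control groups, and siNEG was slightly above Media in every library. ADGRG2 fell by 1.67 on the log2 scale against siNEG (SE 0.049, adjusted P = 2.26e-14).

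CD99 (chrX:2691187-2741309, plus strand) lies in the pseudoautosomal region shared by the sex chromosomes. It stood at 192, 188 and 188 CPM in siEF, at 165, 157 and 161 in siNEG and at 226, 193 and 193 in Media. All siEF libraries were above siNEG and below Media. The log2 fold change was 0.23 against siNEG (SE 0.055, adjusted P = 0.00123). Against Media it was -0.11 (adjusted P = 0.0815), short of an adjusted P under 0.01, and -0.01 with upper quartile scaling. No clear difference from Media was therefore seen. Without siNEG replicate 2 the adjusted P against siNEG was 0.0111. A second row for the Y copy held the same value in 9 of 9 libraries, and with both rows added the log2 fold change against siNEG was 0.23.

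**Figure D1:**
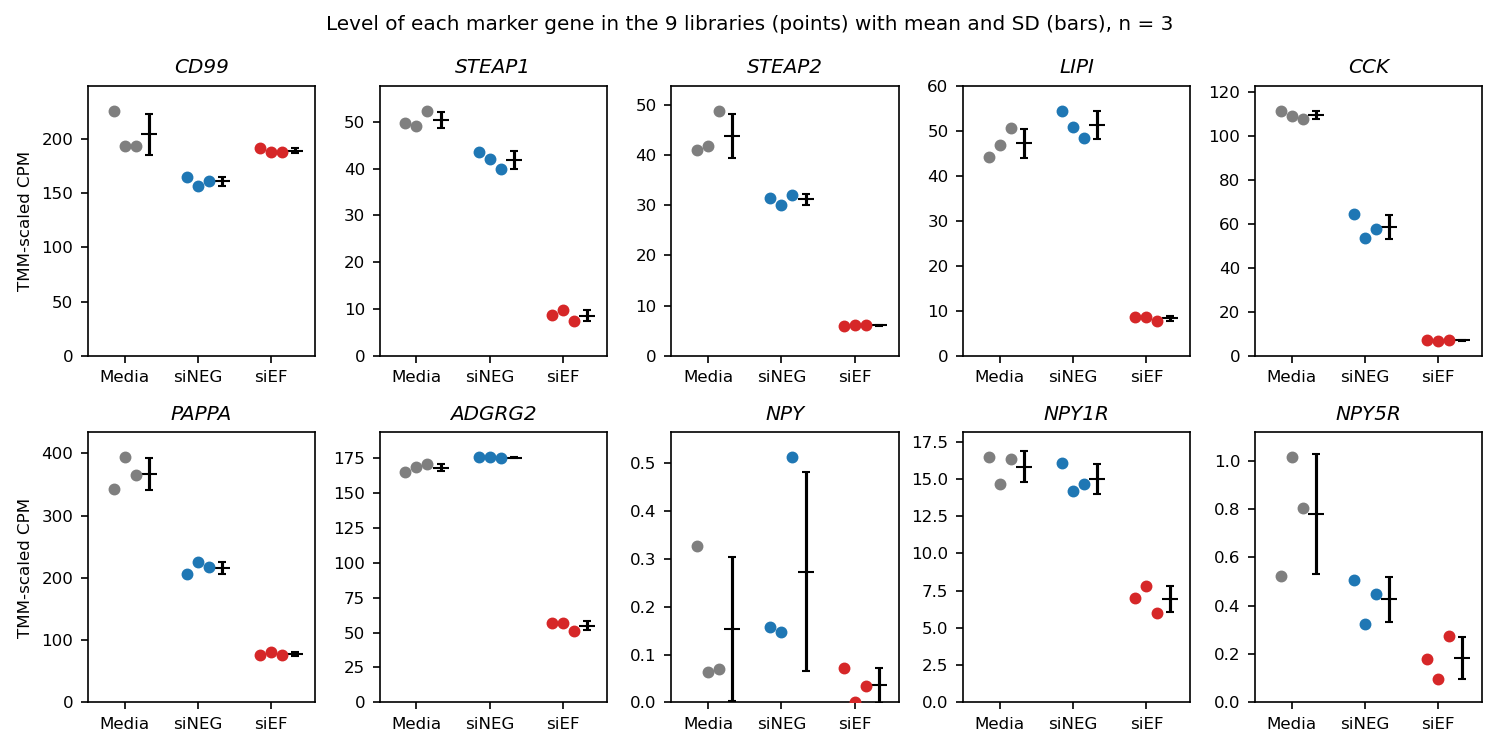
TMM-scaled CPM of each of the 10 genes in the 9 libraries; points are libraries, black bars the mean and SD of 3 per group, each panel with its own axis from 0. The siEF points lie below both control groups in every panel except CD99, where they lie between them, and NPY, where they overlap Media.

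Among the secreted proteins, CCK (chr3:42257825-42266185, minus strand) encodes cholecystokinin, a peptide hormone of gut and brain. CCK stood at 7.05, 6.66 and 7.37 CPM in siEF, at 64.6, 53.7 and 57.5 in siNEG and at 111, 109 and 108 in Media. The 3 groups did not overlap, and the siNEG libraries stood well below Media. CCK fell by 3.05 on the log2 scale against siNEG (SE 0.080, adjusted P = 6.53e-15) and by 3.95 against Media (adjusted P = 3.06e-16), which is 15.5-fold. An antisense lncRNA overlaps 671 bp of its exons and had at most 29 counts in a library.

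LIPI (chr21:14108813-14210955, minus strand) encodes a lipase that makes lysophosphatidic acid (LPA) from phosphatidic acid. It stood at 8.64, 8.72 and 7.68 CPM in siEF, at 54.6, 51.0 and 48.6 in siNEG and at 44.2, 47.0 and 50.7 in Media. The control groups overlapped each other and neither overlapped siEF. LIPI fell by 2.63 on the log2 scale against siNEG (SE 0.080, adjusted P = 3.96e-14).

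PAPPA (chr9:116153791-116402321, plus strand) encodes pappalysin, a secreted metalloproteinase that frees insulin-like growth factors by cutting IGFBP4 and IGFBP5. PAPPA stood at 75.6, 80.8 and 76.7 CPM in siEF, at 206, 225 and 218 in siNEG and at 342, 394 and 365 in Media. The groups were ordered siEF, siNEG, Media with no overlap. PAPPA fell by 1.48 on the log2 scale against siNEG (SE 0.056, adjusted P = 4.81e-13). The antisense gene PAPPA-AS1, which overlaps 2450 bp of its exons, had at most 11 counts.

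NPY (chr7:24284188-24291862, plus strand) encodes neuropeptide Y, the ligand of NPY1R and NPY5R. It held 2, 0 and 1 counts in siEF, 5, 5 and 16 in siNEG and 10, 2 and 2 in Media. The siEF libraries were below siNEG and overlapped Media, and siNEG replicate 3 held 16 of the 26 siNEG counts. Too few reads remained for the test. The ratio of NPY rates was 0.138 for siEF to siNEG (exact 95% interval 0.0268 to 0.452) and 0.246 for siEF to Media (0.0454 to 0.882), intervals that cover counting error only. Without the filter on low counts its log2 fold change against siNEG was -2.74 (adjusted P = 0.0145), which missed the threshold.

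NPY1R (chr4:163323962-163344832, minus strand) and NPY5R (chr4:163343892-163351934, plus strand) encode G protein-coupled receptors and lie head to head, with 528 bp of exon in common on opposite strands. NPY1R stood at 7.01, 7.79 and 5.998 CPM in siEF, at 16.1, 14.2 and 14.7 in siNEG and at 16.5, 14.6 and 16.3 in Media. The control groups overlapped and siEF was below both. NPY1R fell by 1.12 on the log2 scale against siNEG (SE 0.103, adjusted P = 4.05e-08), and tested against the cut-off itself it did not pass (adjusted P = 0.168).

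NPY5R held 5, 2 and 8 counts in siEF, 16, 11 and 14 in siNEG and 16, 32 and 23 in Media. Every siEF library was below every control library, but counts were few, and the gene passed the filter on low counts through the control libraries alone. The log2 fold change was -1.13 against siNEG (SE 0.499, adjusted P = 0.051), short of the threshold, and -2.004 against Media (adjusted P = 0.00112), past it. NPY1R reached 509 counts in a library, and since the strand setting of the counting is not given in the sources used here, reads in the shared exon cannot be assigned to NPY5R with certainty. The log2 ratio of NPY1R to NPY5R per kb was 5.09 ± 0.933 in siEF and 4.90 ± 0.257 in siNEG (SD, n = 3), a difference of 0.19 within the spread (exact two-sided permutation test, P = 0.8, smallest possible 0.1). Without siEF replicate 2 it was -0.29.

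The level per kb of exon, with all annotated exons of a gene merged, was used to order the genes within a group. Which transcripts these cells use was not measured, so the order and the ratios per kb depend on that annotation. In siNEG, CD99 was first with a level of 33.11 ± 0.862 CPM per kb (SD, n = 3) in its X row, or 66.2 with both CD99 rows added. CCK (28.4 ± 2.69), STEAP1 (27.1 ± 1.23) and LIPI (26.8 ± 1.58) followed with ranges that overlapped from each to the next. PAPPA (18.7 ± 0.828) and ADGRG2 (17.3 ± 0.0437) came next without overlap, then NPY1R (3.76 ± 0.246) and STEAP2 (3.57 ± 0.119), which overlapped. NPY (0.305 ± 0.233) and NPY5R (0.128 ± 0.0278) were last. In Media, CCK at 53.0 ± 0.912 CPM per kb was above the X row of CD99 at 42.0 ± 3.88. With both CD99 rows added, CD99 reached 84.0 and led in Media too. In siEF, CD99 stood at 38.9 ± 0.485 (77.8 with both rows added) and PAPPA, the next, at 6.71 ± 0.236. CCK had moved to sixth place with 3.41 ± 0.172.

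The comparison of siNEG with Media set the non-specific siRNA beside the Media libraries, whose exposure to transfection reagent is not stated. None of the 9 passed the call in edgeR's quasi-likelihood test (0.267% of tested genes were called lower and 0.162% higher) or in DESeq2, and 6 were lower and 0 higher at an unadjusted P under 0.05, against 16.3% and 13.9% of tested genes. With adjusted P under 0.01 alone, 4 were lower and 0 higher, against 5.96% and 3.83% of tested genes. The 4 were CCK (log2 fold change -0.90, adjusted P = 7.99e-08), PAPPA (-0.76, 7.99e-08), STEAP2 (-0.49, 0.000109) and CD99 (-0.34, 0.000363). Of the 9, 6 had every siNEG library below every Media library, as did 17.3% of tested genes.

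Between siEF and siNEG, 8 of the 9 tested genes had every siEF library below every siNEG library, as did 37.1% of tested genes. Against Media, 8 were called lower and 0 higher, where 12.5% of tested genes were called lower and 17.4% higher. The 8 were the 7 above and NPY5R, which passed the filter on low counts through the control libraries alone. NPY5R is also among the 8 without overlap against siNEG, and in both counts its direction was set by the filter. The comparisons share libraries, so they are not independent. For CCK, PAPPA and STEAP2 the fold was larger against Media (15.5, 4.73 and 7.18) than against siNEG (8.30, 2.79 and 5.11). For STEAP1, NPY1R and NPY5R it was also larger against Media (5.90, 2.30 and 4.01) than against siNEG (4.90, 2.18 and 2.19). For LIPI and ADGRG2 it was 5.69 and 3.06 against Media and 6.18 and 3.19 against siNEG.

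**Figure D2:**
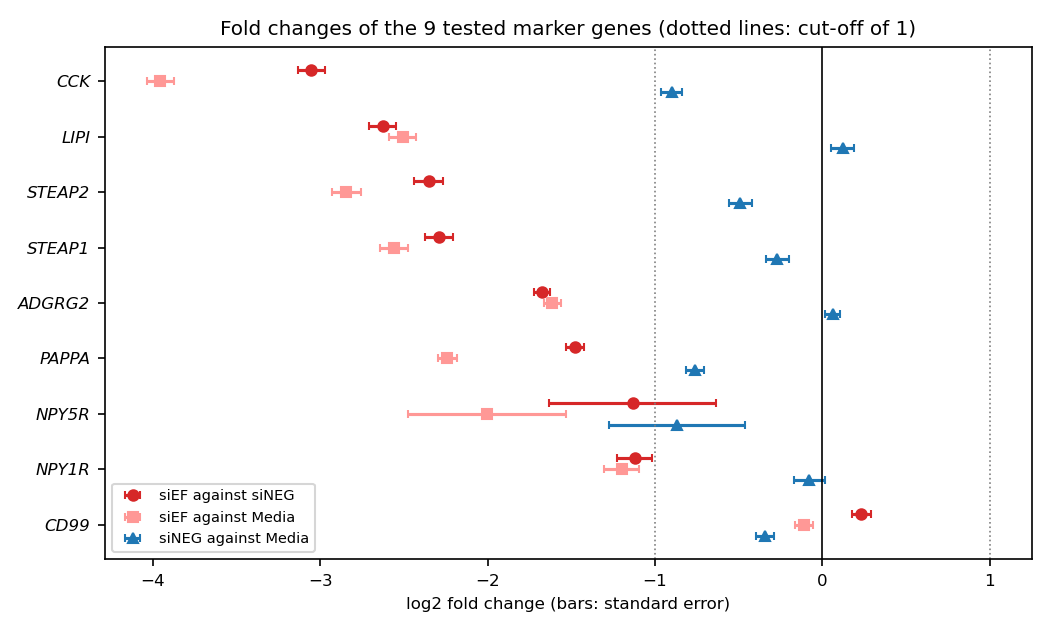
Log2 fold changes with standard errors of the 9 tested genes, ordered by siEF against siNEG (circles), with siEF against Media (squares) and siNEG against Media (triangles); dotted lines mark 1 and -1. CCK is lowest at -3.05 and -3.95 in the siEF comparisons, and CD99 lies near 0 in all 3.

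A GGAA microsatellite lay within 20 kb of the canonical start of 4 of the 10 genes, compared with 14.0% of tested genes, and within 200 kb of 10 of 10, compared with 78.3%. The nearest run was 0.363 kb upstream of CCK, 2.36 kb upstream of LIPI, 3.29 kb upstream of the canonical STEAP2 start (within the longer annotated gene) and 11.9 kb upstream of PAPPA. Of tested genes, 0.112% had a run as near as that of CCK, and 1.29% as near as that of LIPI. The locus inside STEAP2 is also the nearest to STEAP1, 53.9 kb downstream of its start. For the other called genes the distance was 54.8 kb (ADGRG2) and 113 kb (NPY1R), and CD99, which was not called, had a run of 13 repeats 26.1 kb upstream. Of all genes called lower in siEF, 17.1% had a run within 20 kb, and of those called higher, 15.8%.

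**Figure D3:**
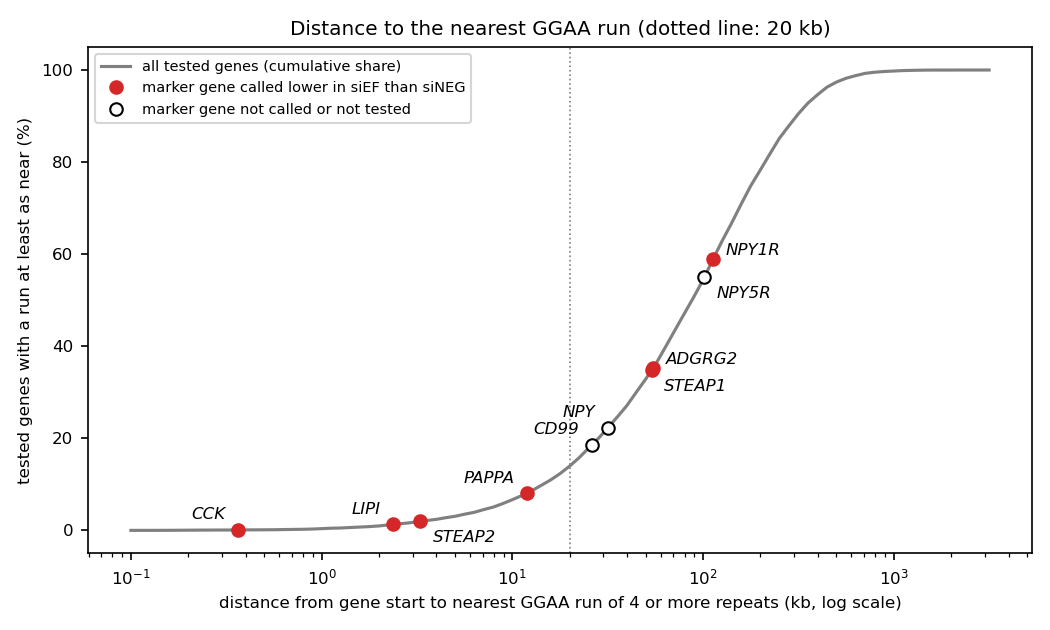
Distance from the canonical transcript start to the nearest run of 4 or more GGAA (kb, log scale) against the share of tested genes with a run at least as near; the line is all tested genes, filled circles are genes called lower in siEF than siNEG and open circles those not called or not tested. CCK, LIPI, STEAP2 and PAPPA lie left of the dotted line at 20 kb.

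In promoter windows from 250 bases before to 50 bases after the start (RefSeq, GRCh38.p14), no window of the 10 genes held GGAAGGAA on either strand, which 3.67% of 35116 promoters did. Single GGAA on either strand occurred between 1 and 7 times per window in these genes, with a median of 3.0 over all promoters.

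Neighbouring genes did not all move with them. Of all tested genes, 11.7% were called lower and 17.1% higher. RBM11, 5.18 kb from LIPI, fell by 1.46 on the log2 scale (adjusted P = 1.36e-11). NAF1, 157 kb from NPY1R, and TMA16, 142.5 kb from NPY5R, flank that pair and fell by 1.77 and 1.43. CFAP69, 7.04 kb from STEAP2, rose by 1.02 (adjusted P = 0.00841), and TRAK1, 31.9 kb from CCK, rose by 1.19 (adjusted P = 4.26e-12). XG, 10.7 kb from CD99, had a log2 fold change of 0.20 and was not called. Farther off, VIPR1, 223 kb from CCK, rose by 2.03 and DEC1, 751 kb from PAPPA, by 1.98. MPP6, 281 kb from NPY, was called lower with a log2 fold change of -1.28. PHKA2, 5.19 kb from ADGRG2, and PDHA1, 221 kb from it, had -0.55 and -0.93 and were not called. The remaining neighbours, CD99P1, SRI, CR381653.1, ASTN2 and CCDC126, were not called either.

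The partners of these products were described from 7 lists with 47 genes, of which 31 were tested. Between siEF and siNEG 4 of the 31 were called lower and 12 higher, where 11.7% and 17.1% of all tested genes were. Of the 12, 4 (DPP4, CCKAR, PCSK1 and LPAR5) passed the filter on low counts through siEF alone, and of the 4 lower, LPAR4 and ADGRG7 passed through the control libraries, so their direction was set by the filter and the counts are given as a description. With so few genes in each list, the counts below are also read only as descriptions beside those shares.

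Around PAPPA, 3 of 7 tested partners were higher and 0 lower, where 17.1% and 11.7% of all tested genes were. IGFBP5, a PAPPA substrate that holds insulin-like growth factors, stood at 15246, 14729 and 15569 CPM in siEF and at 2110, 2181 and 2210 in siNEG (log2 fold change 2.81, adjusted P = 1.23e-17). The siEF libraries were all above siNEG. IGFBP4, the other substrate, rose by 1.74 and the growth factor IGF1 by 1.64. The PAPPA inhibitors STC1 and STC2 had log2 fold changes of -0.43 and -0.89 for siEF against siNEG, neither called. For siNEG against Media those of STC1 and STC2 were 1.20 (called higher) and -0.82 (adjusted P = 0.000174, not called).

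Around LIPI, 2 of 8 tested genes were lower and 3 higher, where 11.7% and 17.1% of all tested genes were. The LPA receptor LPAR3 fell by 1.87 on the log2 scale, and LPAR4 had a log2 fold change of -2.29. In contrast, ENPP2 (autotaxin, which makes LPA outside the cell) rose by 4.48, from 2.15, 1.74 and 2.24 CPM in siNEG to 47.3, 42.9 and 46.3 in siEF (adjusted P = 9.58e-16). LPAR6 rose by 1.53, and LPAR5 held 21, 10 and 20 counts in siEF and 3, 11 and 2 in siNEG.

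Around CCK, 1 of 7 tested genes was lower and 2 higher, where 11.7% and 17.1% of all tested genes were. PCSK2, a convertase that cuts prohormones, fell by 1.21 (adjusted P = 3.29e-11), while the receptor CCKAR held 17, 9 and 11 counts in siEF and 0, 3 and 1 in siNEG. The convertase PCSK1 held 13, 8 and 19 counts in siEF and 0, 2 and 4 in siNEG. Of the 3 tested relatives of ADGRG2, ADGRG6 rose by 2.19 and ADGRG1 by 1.55, and ADGRG7 held 5, 1 and 4 counts in siEF and 12, 14 and 17 in siNEG. DPP4, a peptidase that trims NPY, was the 1 tested gene of 6 in the NPY list, with 50, 28 and 68 counts in siEF, 3, 1 and 1 in siNEG and 4, 1 and 4 in Media.

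CD99L2, the closest relative of CD99, rose by 1.21 (adjusted P = 2.42e-12), 1 of 3 tested genes in its list, with 168, 182 and 172 CPM in siEF and 75.3, 78.5 and 71.7 in siNEG. Of the other STEAP genes 0 of 2 were called, STEAP3 having a log2 fold change of -0.72 (adjusted P = 1.61e-06), and STEAP4 was not tested. Beside both counts, 11.7% of all tested genes were called lower and 17.1% higher. STEAP1B had a log2 fold change of -0.55 (adjusted P = 0.0251). In STEAP3 and STEAP1B every siEF library was below every siNEG library, as in 37.1% of tested genes. Against Media, STEAP3 was called lower (-1.18, adjusted P = 2.40e-09), as were 12.5% of tested genes.

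**Figure D4:**
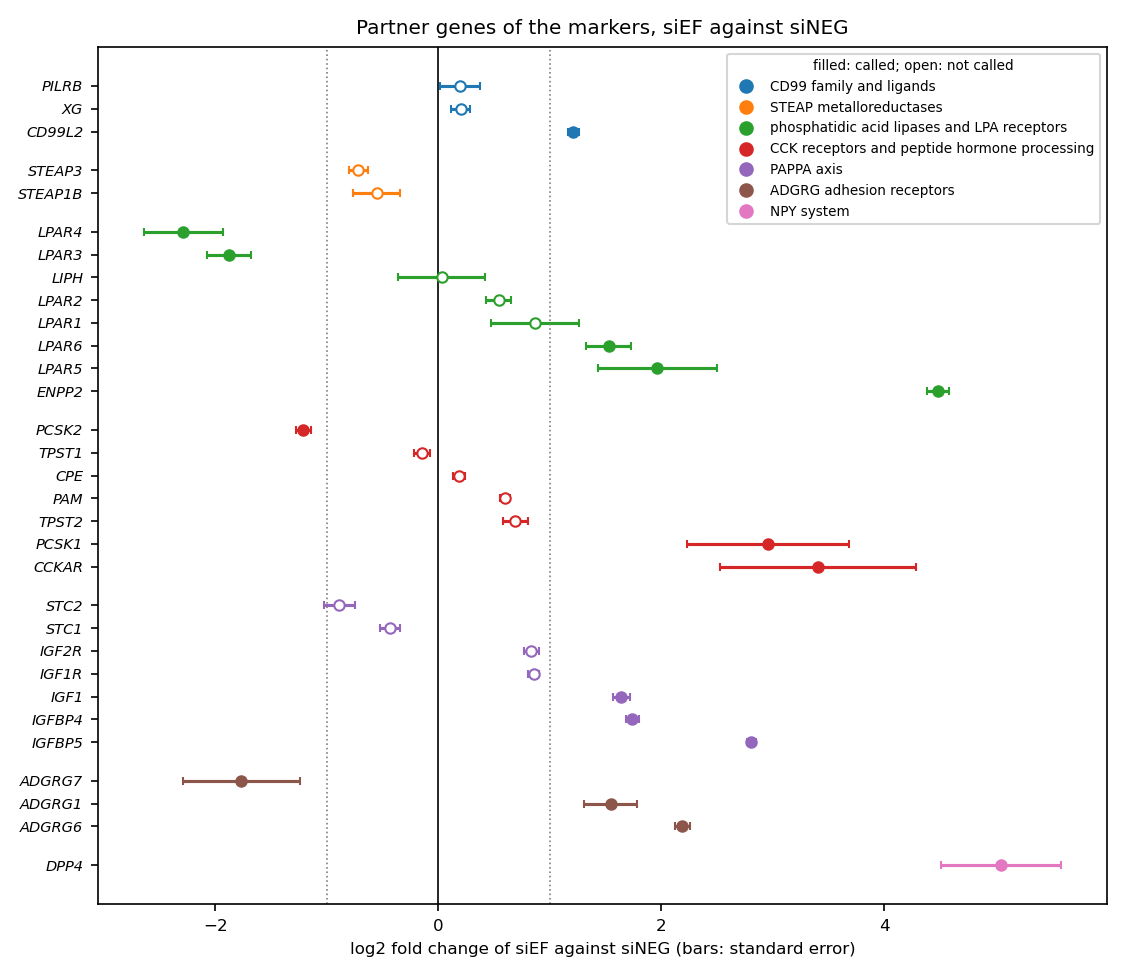
Log2 fold changes of siEF against siNEG with standard errors for the 31 tested partner genes, by list; filled points were called and open points were not. ENPP2 (4.48) and DPP4 (5.05) lie farthest to the right, and LPAR4 (-2.29) farthest to the left. DPP4 passed the filter on low counts through siEF alone and LPAR4 through the control libraries, so the filter set their direction.

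The profiles over the 9 libraries most like those of the 3 genes with the largest fold changes were found by root mean square difference of centred log2(CPM + 1). For CCK these were SHH (0.130), a secreted morphogen, TMEFF2 (0.171), a membrane protein, and PHOSPHO1 (0.218), a phosphatase of bone mineralization. Their log2 fold changes of siEF against siNEG were larger, at -4.69, -3.41 and -3.60 beside -3.05 for CCK. SHH averaged 7.43 CPM in siNEG and 0.269 in siEF, where the added 1 CPM shortens its fall. For LIPI they were HMGB1P6 (0.0635), PPARGC1B (0.0697) and HMGB1 (0.0725), the first a pseudogene of the third whose reads cannot be fully told apart from it. For STEAP2 they were RPE (0.0834), JPH1 (0.0835) and CYCS (0.0951), which encode an enzyme of the pentose phosphate pathway, a junctional membrane protein and cytochrome c.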

How the data were processed

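Per the methods of the study, reads were mapped to hg38 with STAR and genes were quantified with RSEM; the submitters' processing notes also name FastQC, cutadapt 2.10 and DESeq2 1.32.0. The values deposited by the authors are expected counts per gene, not scaled and not pooled. The annotation release and strand setting are not given in the sources used here. Of 60603 gene identifiers, 60306 (99.5%) were in GENCODE release 44, used for positions and exon lengths.

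Expected counts were rounded, filtered with filterByExpr (16093 genes) and given TMM scaling factors. The test was edgeR 4.0.16's quasi-likelihood F test (R 4.3.3), with 1 mean per group and all 9 libraries in the fit. P values were adjusted by Benjamini-Hochberg over all tested genes, and all adjusted P values are from this test unless named otherwise. They measure the spread between libraries labelled as biological replicates, 3 per group. The script was tested on simulated data; a first pass mark over all changed genes was missed, the missed genes examined were near the count floor, and the mark was then set over genes of at least 1 CPM. DESeq2 1.42.0 and other scalings, filters and subsets were alternatives.

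Named were the 10 genes, FLI1 and NR0B1, every called gene of the partner lists (or the most abundant where none was called), and 3 nearest profiles for each of the 3 genes with the largest fold change. Neighbours, STC1, STC2, single marker genes and the values of genes outside that rule were named after their values were seen. The genes and lists were chosen with earlier results of these data known. Samples sharing a replicate number had correlations of deviations between -0.138 and 0.112, so the numbers were not taken to pair them. A further marker list is not reported here as a whole.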

Additional observations from a re-analysis of the deposited data

How the results depend on the processing

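The 7 genes called lower in siEF than siNEG were 7 under DESeq2, other scalings and filters, unrounded counts, the 6 libraries alone and each library left out, and 6 when tested against the cut-off itself, where NPY1R was lost. Against Media the count was 8, or 7 with at least 10 counts in every library, where NPY5R was not tested, and 6 against the cut-off. With adjusted P alone in the main fit, 1 gene (CD99) was higher in siEF than siNEG and 4 differed between siNEG and Media. STEAP1, at an adjusted P of 0.0128 between siNEG and Media, depended on the setting. Its adjusted P was 0.00465 in DESeq2, 0.00776 with the 6 libraries alone and 0.0677 without siNEG replicate 3. A fit with the replicate block gave 7 lower and 0 higher against siNEG, 0 called between siNEG and Media, and 8 lower against Media, and changed no call. The log2 fold changes of siEF against siNEG and of siNEG against Media kept their sign in the alternatives run. Those of siEF against siNEG ranged from 0.19 to 0.32 for CD99 and from -1.53 to -0.89 for NPY5R. For siEF against Media, CD99 was -0.11 in the main fit and -0.01 with upper quartile scaling. Leaving out each library in turn was added for the receptor and STEAP ratios after the data were seen: the difference between siEF and siNEG ranged from -0.02 to 0.18 for STEAP1 to STEAP2 (-0.02485 without siEF replicate 2) and from -0.29 to 0.64 for NPY1R to NPY5R (-0.2933 without siEF replicate 2), so neither difference has a settled sign. Depth limits NPY and NPY5R, with at most 16 and 32 counts in a library.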
